A study of Arabidopsis thaliana with 9 samples.

Results

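The cation-proton antiporters of Arabidopsis thaliana were described gene by gene for chromatin immunoprecipitation sequencing (ChIP-seq) peaks of 2 growth-regulating factors, GRF1 and GRF3. The set was every protein-coding gene whose symbol or synonym is CHX, NHX or KEA followed by a number. It held 42 of 27444 protein-coding genes on chromosomes 1 to 5, of which 28 were CHX, 8 NHX and 6 KEA genes. All but SOS1, which carries NHX7 as a synonym, also matched by symbol. The genes were chosen by name, but the family was selected on the peaks and folds of these same libraries, so every count over it is a description and no test was made on it.

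The plants belonged to strain Ws, were 2 weeks old and were sampled whole. They carried GRF1 fused to GFP (35S:GRF1-GFP, 3 libraries), GRF3 fused to GFP (35S:GRF3-GFP, 3 libraries) or GFP alone (35S:GFP, 3 samples, not analysed here). All 3 transgenes were driven by 35S, a viral promoter active in most plant tissues, so the tagged factors may be present beyond the cells that normally make them. Where they accumulated was not examined here. Precipitation used an antibody against GFP in every group. The GRF1-GFP lists held 1410, 1122 and 1878 peaks and the GRF3-GFP lists 2258, 2301 and 5944, so that GRF3-GFP replicate 3 had by far the longest list. Whether the replicates of a factor were separate biological samples throughout is not stated in the labels.

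These antiporters move potassium or sodium ions across a membrane in exchange for protons, and so set ion content and pH on either side. NHX proteins load sodium and potassium into vacuoles or endosomes, and SOS1 exports sodium at the plasma membrane under salt stress. KEA proteins exchange potassium for protons in chloroplasts and in the endomembrane system. The CHX family is the largest, and many of its genes are known to be transcribed mainly in pollen. GRFs are transcription factors best known for promoting cell proliferation in leaves.

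A gene was counted for a library when the summit of a peak lay inside the gene's span or within 1 kb of it. Peaks of 1 factor that overlapped between libraries were joined into a consensus region if at least 2 of the 3 libraries contributed. Fold is the authors' enrichment of a peak over the background of the peak caller, and −log10 q its significance there. Whether that background was an input, the GFP-only samples or the same library's surroundings with no control is not stated. Both describe peaks within a list, and a gene without a peak has no value in that library. Sequencing depth is unknown, since no list gives read counts.

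Antiporter genes carried fewer GRF1-GFP than GRF3-GFP peaks, in lists that were also shorter for GRF1-GFP, and the GRF3-GFP peaks were almost all in CHX genes. A GRF1 consensus region was found at 3 of the 42 genes (7.14%), where 3.11% of all protein-coding genes had one. A GRF3 consensus region was found at 10 of the 42 (23.8%), where 5.52% of all genes had one. With every list reduced to the 1122 peaks of the shortest, the counts were 3 genes for GRF1 (2.98% of all genes) and 5 for GRF3 (2.99% of all genes). The 3 genes with a GRF1 region were CHX5, CHX6a and NHX6. The 10 with a GRF3 region were CHX5, CHX10, CHX16, CHX20, CHX23, CHX24, CHX26, CHX27, CHX28 and KEA4. Only CHX5 had regions of both factors (2.38% of the set, against 0.907% of all genes), and 30 of the 42 had neither. CHX5 was no longer such a gene without GRF3-GFP replicate 2 or without replicate 3. A GRF1 region alone was found at 2 genes (4.76%, against 2.2% of all genes) and a GRF3 region alone at 9 (21.4%, against 4.62%). Regions present in all 3 libraries were found at 2 genes for GRF1 (4.76%, against 2.29% of all genes) and at 5 for GRF3 (11.9%, against 3.02%). Without GRF3-GFP replicate 1 the GRF3 count was 6 (3.93% of all genes), and without replicate 3 it was also 6 (3.39% of all genes). Both of those counts held CHX20, CHX24, CHX26, CHX27 and CHX28.

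**Figure D1:**
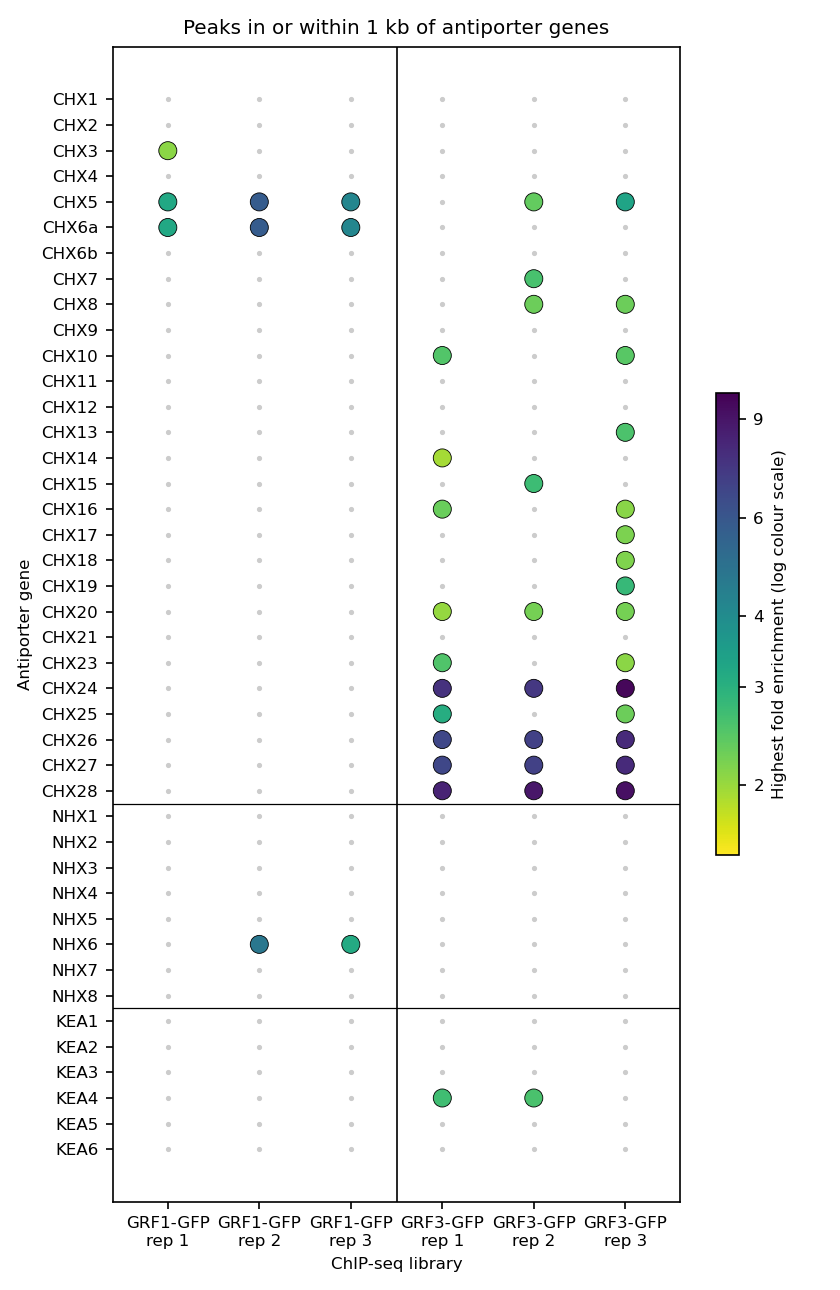
Each row is an antiporter gene and each column a library, with GRF1-GFP on the left. A coloured disc marks a peak whose summit lies in the gene or within 1 kb, coloured by the highest fold on a log scale, and a grey point marks no peak. The GRF1-GFP columns hold discs at 3 genes each, while the GRF3-GFP columns hold 11, 10 and 15, nearly all in the CHX block.

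By library, the number of antiporter genes with a peak was 3, 3 and 3 in GRF1-GFP and 11, 10 and 15 in GRF3-GFP (3.0 ± 0.0 and 12.0 ± 2.6, SD, n = 3 each). The ranges did not overlap. Each GRF1-GFP library had only 2 such peaks, since 1 peak counted for both CHX5 and CHX6a. The third gene was CHX3 in replicate 1 and NHX6 in replicates 2 and 3. The SD of 0.0 therefore does not stand for the same 3 genes. In each GRF3-GFP library, 1 peak likewise counted for both CHX26 and CHX27. As shares of the 42 genes, the GRF1-GFP libraries had 7.14% each, where 3.13%, 4.61% and 4.03% of all genes had a peak. The GRF3-GFP libraries had 26.2%, 23.8% and 35.7%, where 7.38%, 5.67% and 14.5% of all genes had one. GRF3-GFP thus also had more peaks near genes in general, and replicate 3 raised both shares.

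Antiporter spans are long, which gives a peak more room to fall inside. The median span was 3380.5 bp, against 2078 bp over all protein-coding genes, and the shortest member measured 2516 bp. Summits inside spans were therefore also counted per 100 kb of span. In the GRF1-GFP libraries the antiporter genes had 0.632, 0 and 0 summits per 100 kb, against 0.51, 0.903 and 0.693 over all protein-coding genes. In the GRF3-GFP libraries they had 6.32, 6.32 and 10.7 per 100 kb, against 1.75, 1.19 and 4.35 over all genes. For the CHX genes alone the GRF3-GFP values were 10.1, 10.1 and 19.1 per 100 kb. The single GRF1-GFP summit behind the 0.632 lay in CHX3 in replicate 1. With 1, 0 and 0 summits in replicates 1, 2 and 3, the GRF1-GFP values are too few to set against all genes.

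**Figure D2:**
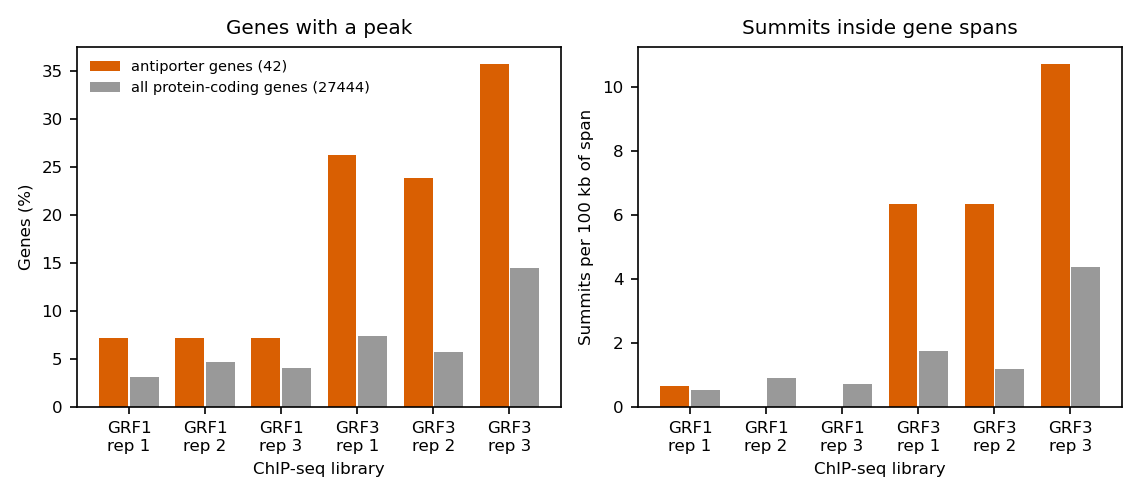
Left, the share of genes (%) with a peak in the span or within 1 kb, and right, the number of summits per 100 kb of gene span, for each library. Orange bars are the 42 antiporter genes and grey bars all 27444 protein-coding genes. In the GRF3-GFP libraries the orange bars stand above the grey ones in both panels, and in GRF1-GFP replicates 2 and 3 the orange bars on the right are at 0. The orange GRF1-GFP bars on the right rest on 1, 0 and 0 summits.

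Most genes with a peak were CHX genes. Among the 28 CHX genes, 2 (7.14%) had a GRF1 region and 9 (32.1%) a GRF3 region, and 20 (71.4%) had a peak in at least 1 of the 6 libraries. Over all protein-coding genes these shares were 3.11%, 5.52% and 22.0%. Among the 8 NHX genes, NHX6 had a GRF1 region, none had a GRF3 region, and the other 7 had no peak in any library. Those 7 were the vacuolar exchangers NHX1, NHX2, NHX3 and NHX4, the endosomal NHX5, SOS1 and NHX8. Among the 6 KEA genes, KEA4 had a GRF3 region, and KEA1 and KEA2 of the chloroplast envelope, KEA3 of the thylakoid, KEA5 and KEA6 had no peak. A peak in at least 1 of the 6 libraries was thus found at 12.5% of the NHX and 16.7% of the KEA genes, against 22.0% of all genes. With only 8 and 6 genes, nothing is read from the NHX and KEA counts. The NHX and KEA spans were longer than the CHX spans, with medians of 4312 bp, 5031.5 bp and 3030.5 bp in that order.

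GRF1-GFP peaks near antiporter genes lay outside the spans, apart from the one in CHX3. No antiporter gene had a GRF1 region inside its span. Since only 1.07% of all genes had one, 0 of 42 is near that share and nothing is read from it. A GRF3 region inside the span was found at 9 of the 42 (21.4%), where 2.69% of all genes had one. The first GRF1 region lay between the neighbouring genes CHX6a and CHX5 on chromosome 1 (2555227 to 2555614, TAIR10). Its summit was 232 bp from the CHX6a span and 730 bp from the CHX5 span. The folds were 3.20, 5.79 and 4.19 in GRF1-GFP replicates 1, 2 and 3 (4.39 ± 1.30, SD, n = 3). The 3 summits fell within 6 bp of each other, and within each list these folds stood between the 64.8th and the 70.1st percentile. No GRF3-GFP library had a peak overlapping this region. It gave the 2 genes with a GRF1 region of mean fold of at least 4 (4.76%, against 2.49% of all genes).

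The other GRF1 region lay beside NHX6, which encodes an exchanger of the Golgi and endosomes that controls luminal pH and vacuolar traffic. It spanned 29957226 to 29957668 on chromosome 1, with its summit 269 bp beyond the higher-coordinate end of NHX6. The folds were 4.72 in GRF1-GFP replicate 2 and 3.16 in replicate 3, and replicate 1 had no peak there. The region is nearer to another protein-coding gene, AT1G79620, than to NHX6. No GRF3-GFP library had a peak here.

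GRF3-GFP peaks at antiporter genes fell into a high and a low class, with no fold between 3.31 and 6.69. Of the 40 GRF3-GFP peaks in or within 1 kb of the 42 genes, 9 had a fold of 6.69 to 9.67 and 31 a fold of 1.75 to 3.31. The 9 high peaks formed 3 regions, each present in all 3 libraries. All 31 low peaks had their summit inside a gene span. High and low folds were not particular to these genes. Over all 1179 GRF3 regions within 1 kb of a gene, the mean fold had a median of 2.85 and quartiles of 2.29 and 7.69. In 41.6% of them it was at least 4. The gap in fold at the antiporter genes rests on only 3 high regions.

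The highest of these regions was at CHX28 on chromosome 3 (19314776 to 19315212). The folds were 8.33, 8.94 and 9.23 in GRF3-GFP replicates 1, 2 and 3 (8.83 ± 0.46, SD, n = 3). The consensus summit lay 0.06 kb inside the lower-coordinate end of the CHX28 span, so the region straddled that end. The replicates' folds stood between the 88.9th and the 95.1st percentile of their lists.

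CHX24 had a similar region at the lower-coordinate end of its span on chromosome 5 (14642353 to 14643049). The GRF3-GFP folds were 7.63, 7.33 and 9.67 (8.21 ± 1.27, SD, n = 3), with the summit 0.12 kb inside the span. Replicate 3 was the highest, and the other replicates were close together. This region is also within 1 kb of SEF (AT5G37055), which encodes a subunit of a chromatin remodelling complex, so it counted for that gene too.

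The third high region lay between CHX26 and CHX27, 2 neighbouring genes on chromosome 5 (256951 to 257348). The folds were 6.69, 6.94 and 8.0 in GRF3-GFP replicates 1, 2 and 3 (7.21 ± 0.69, SD, n = 3). Its summit was 194 bp from the CHX27 span and 472 bp from the CHX26 span. It therefore resembles in place the GRF1 region between CHX6a and CHX5, another pair of neighbouring members. Summits of the 3 high regions differed between libraries by 15, 12 and 6 bp at CHX28, CHX24 and CHX26/CHX27.

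**Figure D3:**
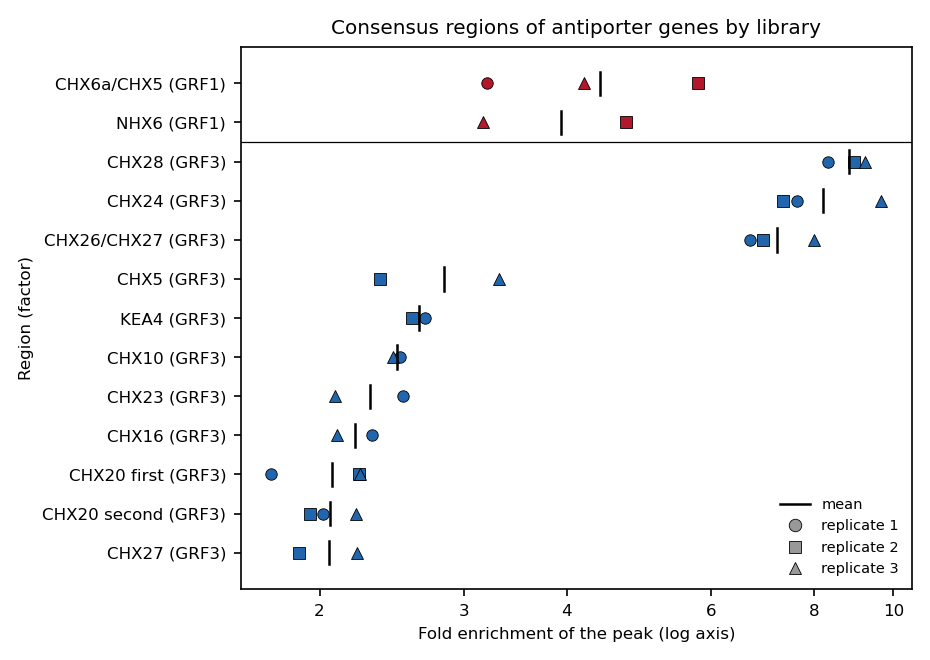
Fold of the peak in each library (symbols by replicate, log axis) at the 13 consensus regions of antiporter genes, with the GRF1 regions in red above the line and the GRF3 regions in blue below it. Vertical ticks are means over the libraries with a peak. The CHX28, CHX24 and CHX26/CHX27 regions lie between 6.69 and 9.67, and every other GRF3 region lies at or below 3.31.

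The other 8 GRF3 regions had low folds and lay inside gene spans. CHX20, which encodes a guard cell antiporter needed for normal stomatal opening, had 2 of them, each in all 3 libraries. The first, on chromosome 3 (19906408 to 19906720), had GRF3-GFP folds of 1.75, 2.24 and 2.24 (2.07 ± 0.28, SD, n = 3). The second (19909123 to 19909587) had folds of 2.02, 1.95 and 2.22 (2.06 ± 0.14, SD, n = 3). They lay at 21.1% and 82.9% of the span, counted from its lower-coordinate end, and the first was also within 1 kb of AGD6 (AT3G53710).

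The remaining 6 were each found in 2 libraries. CHX23, which acts with CHX21 in guiding pollen tubes to ovules, had folds of 2.52 in GRF3-GFP replicate 1 and 2.09 in replicate 3 (chromosome 1, 1666261 to 1666698). CHX21 had no peak in any library. CHX16 had folds of 2.32 in replicate 1 and 2.10 in replicate 3 (chromosome 1, 23817015 to 23817460). CHX10 had 2.51 in replicate 1 and 2.46 in replicate 3 (chromosome 3, 16403755 to 16404103). Its neighbours CHX4, CHX11 and CHX12, which follow one another on the chromosome with no other protein-coding gene between them, had no peak.

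CHX5 had folds of 2.37 in GRF3-GFP replicate 2 and 3.31 in replicate 3 (chromosome 1, 2557847 to 2558517). The summit lay 2803 bp from that of the GRF1 region beside the same gene, so the regions of both factors at CHX5 did not overlap. CHX27 had a second, internal region with folds of 1.89 in replicate 2 and 2.22 in replicate 3 (chromosome 5, 259200 to 259790). Replicate 3 had 1 more internal peak in CHX5, with a fold of 2.08, and 1 in CHX26, with a fold of 2.49, that no other library shared.

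KEA4, which encodes a potassium-proton antiporter of the endomembrane system, had folds of 2.69 in GRF3-GFP replicate 1 and 2.59 in replicate 2 (chromosome 2, 8481594 to 8481838). It was the one region of the 11 without a peak in replicate 3, the longest list. Its −log10 q of 18.5 and 18.1 was well above that of the other low peaks, which reached at most 6.44.

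**Figure D4:**
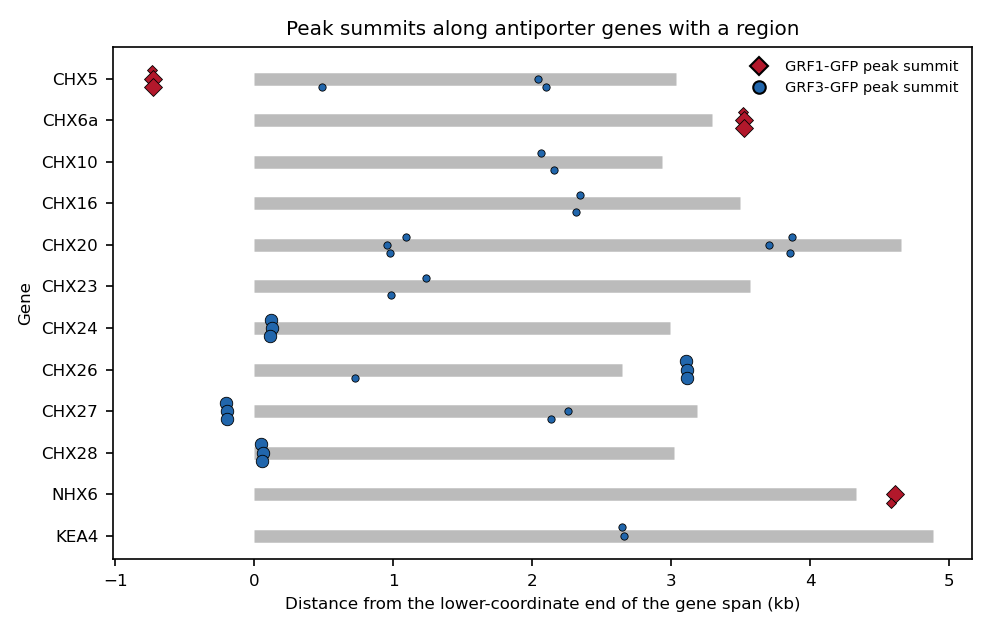
Peak summits of each library along the 12 antiporter genes with a region, as distance in kb from the lower-coordinate end of the gene span (grey bar). Red diamonds are GRF1-GFP and blue circles GRF3-GFP summits, larger where the fold is at least 4, with replicates 1 to 3 from top to bottom in each row. The large blue circles lie at or beside an end of CHX24, CHX26, CHX27 and CHX28, while the small ones lie well inside the spans.

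Summit positions were mostly tighter at the high regions than at the low ones. At the 8 low GRF3 regions the summits of the libraries differed by 14 to 253 bp, with a median of 107 bp. The 14 bp at the low KEA4 region is less than the 15 bp at the high CHX28 region. Most low regions had summits from only 2 libraries, while each high region had them from 3, so the spreads are not quite alike. Over all GRF3 regions within 1 kb of a gene, the median was 10 bp for the 490 with a mean fold of at least 4 and 62 bp for the 689 below it. Such a difference between high and low regions was thus found across the genome.

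Set beside all GRF3 regions within 1 kb of a gene, the 11 at antiporter genes were more often internal. Most were of low fold, as were most of all these regions. The summit was inside an antiporter span in 10 of 11 (90.9%), against 64.0% of 1179 regions inside any protein-coding span. The CHX28 and CHX24 summits among them lay only 0.06 and 0.12 kb inside an end. Antiporter spans are also longer, with a median of 3380.5 bp against 2078 bp. A mean fold of at least 4 was found in 3 of 11 (27.3%), against 41.6% of the 1179. Presence in all 3 libraries was found in 5 of 11 (45.5%), against 50.1%. These shares rest on 11 regions and were not tested. Counted by gene, 4 of the 42 (9.52%) had a GRF3 region with a mean fold of at least 4, against 2.63% of all genes, but CHX26 and CHX27 share 1 region.

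No region at an antiporter gene was shared by the factors, and most regions near genes in general were not shared either. None of the 2 GRF1 regions overlapped a GRF3 region, against 27.4% of the 634 GRF1 regions within 1 kb of a gene. None of the 11 GRF3 regions overlapped a GRF1 region, against 14.9% of the 1179 near genes. No single library of the other factor had a peak overlapping any of the 13 regions. With counts this low, the lack of overlap was not tested and nothing is read from it.

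A further 9 CHX genes had a GRF3-GFP peak but no region. CHX8 had peaks in replicates 2 and 3 with folds of 2.30 and 2.30, and CHX25 in replicates 1 and 3 with folds of 3.07 and 2.30. In both genes the peaks of the libraries lay at separate places and did not overlap, so neither gene had a region. The summits were at 12.0% and 28.2% of the CHX8 span and at 76.8% and 14.2% of the CHX25 span. The other 7 had a peak in 1 library. CHX14, involved in potassium efflux, had one in replicate 1 with a fold of 1.94. CHX7 and CHX15 had one in replicate 2, with folds of 2.61 and 2.73.

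CHX13, a plasma membrane transporter for potassium uptake, had a peak in GRF3-GFP replicate 3 with a fold of 2.57. CHX17, which acts in potassium homeostasis from intracellular membranes, and its relatives CHX18 and CHX19 had peaks in replicate 3 with folds of 2.17, 2.16 and 2.81. None of these peaks was found again in another library. For comparison, 18.5% of all protein-coding genes had a GRF3-GFP peak in at least 1 library, against 19 of the 42 (45.2%). The only antiporter gene with a GRF1-GFP peak but no region was CHX3, with a fold of 2.08 in replicate 1. For GRF1-GFP, 6.33% of all genes had a peak in at least 1 library, against 4 of the 42 (9.52%).

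In all, 22 of the 42 genes (52.4%) had a peak in at least 1 of the 6 libraries, against 22.0% of all genes. The remaining 20 had none. Besides the 7 NHX and 5 KEA genes named above, these were CHX1, CHX2, CHX4, CHX6b, CHX9, CHX11, CHX12 and CHX21. The nearest consensus summits beyond the 1 kb limit at a gene without a peak were those at CHX1, with a GRF1 summit 2015 bp away on one side (mean fold 4.57) and a GRF3 summit 1785 bp away on the other (mean fold 2.72). The member farthest from a summit inside the limit was CHX5, at 730 bp. CHX genes often resemble each other in sequence, and the authors' treatment of reads that map to several places is not stated in the labels.

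Other genes of potassium, sodium and proton transport were counted in the same way. The list held 77 genes for potassium channels and carriers, proton pumps, calcium-proton exchangers and the salt signalling pathway that activates SOS1. It includes 2 thiolase genes that share the synonyms KAT1 and KAT2 and had no peak. A GRF1 region was found at 1 of the 77 (1.3%, against 3.11% of all genes) and a GRF3 region at 3 (3.9%, against 5.52%). A GRF3-GFP peak in at least 1 library was found at 18.2% of the list, against 18.5% of all genes. The share with any GRF3-GFP peak is close to that of all genes. The shares with a region are lower than those of all genes, but they rest on 1 and 3 genes, so nothing is read from them.

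Of the 77, SOS3 was the only gene with a region in all 3 libraries of a factor. That factor was GRF3 (1.3% of the list, against 3.02% of all genes). For GRF1 no gene of the list had such a region, against 2.29% of all genes. SOS3 is described as a single gene, and nothing is read from its count. SOS3 encodes the calcium sensor that, with the kinase SOS2, switches on SOS1. The GRF3-GFP folds were 9.69, 9.73 and 10.8 (10.1 ± 0.6, SD, n = 3) at a summit 209 bp outside the span (chromosome 5, 8243401 to 8243828). SOS2 and SOS1 had no peak in any library.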

How the data were processed

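Of 9 ChIP-seq samples in 3 groups, the 6 of GRF1-GFP and GRF3-GFP have a peak list each. Peaks had been called per library, as the peak names show. Per the submitters' processing notes, FastQC, Trimmomatic, Bowtie2, MACS2 and TAIR10 were used, with no version or setting recorded. Which control was used, if any, is not stated. The deposited values of a peak are a fold enrichment (a ratio), a −log10 p and −log10 q, and a score, which equals the −log10 q multiplied by 10 with its decimals dropped. Depth per library is unknown.

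Gene spans came from a RefSeq table of TAIR10.1, used for names and neighbourhood. Both builds describe the strain Columbia, while the plants were Ws. It gives no strand, exons or UTRs, so these were not assigned. Peaks of a factor overlapping by at least 1 bp formed a region, kept with at least 2 of 3 libraries. The median over libraries of the strongest peak's summit was taken as its summit. Python 3.11.15, pandas 2.3.3 and NumPy 2.4.6 were used, and the linking was tested on simulated data with planted peaks. No 2 libraries shared a peak with the same edges and fold.

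The members and lists were chosen with earlier results of these data known, and no test was made over them. Every member with a peak is named, and those with a region have their values in each library. Of the other transport genes, those with a region in all 3 libraries are named. No promoter was searched for motifs. Alternatives were stricter peak thresholds, support of 1 or 3 libraries, equal list lengths, other windows and gene rules, reciprocal overlap and leaving out each library.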

Additional observations from a re-analysis of the deposited data

How the results depend on the processing

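The number of antiporter genes with a GRF1 region stayed between 2 and 4 under all alternative settings except 2: it was 0 with summits inside spans only and 1 with the nearest gene only, where 1.07% and 2.21% of all genes were counted. Over all these settings the share of all genes ran from 1.07% to 6.33%, with 4 antiporter genes at 6.33%, so a steady count is no sign of stability. Without each GRF1-GFP replicate it ran from 2 to 3 (2.48% to 2.66% of all genes). The GRF3 count of 10 was 5 when peaks needed a −log10 q of 5 or more, 4 when they needed a fold of 4 or more, 5 when all 3 libraries had to agree, 5 with lists of equal length (1122 peaks) and 19 with any peak in at least 1 library, where 3.29%, 2.53%, 3.02%, 2.99% and 18.5% of all genes were counted. Under the other window, gene and overlap rules it ran from 8 to 11 (2.69% to 9.3% of all genes), and without each GRF3-GFP replicate from 6 to 8 (3.39% to 4.25%). CHX24, CHX26, CHX27 and CHX28 were counted in every one of these settings except summits inside spans and nearest gene only, which drop CHX26.

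CHX5 as a gene with regions of both factors was lost (0 genes) under the 4 stricter peak rules above (−log10 q, fold, all libraries, equal length), and with summits inside spans or within 500 bp, the nearest gene only and 50% reciprocal overlap. With summits within 3 kb there were 2 such genes, CHX5 and CHX1. Leaving out single libraries gave 0 to 1. The regions shared by both factors stayed at 0 under each overlap rule. Mean folds without single libraries were computed too, but with 2 or 3 values a mean cannot move by more than 1 SD, so they say nothing about stability. The cause of these changes was not tested, beyond the smaller number of peaks that stricter rules leave.

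No paired analysis was possible because no result comes from a test. The unknown depth and the absence of GFP-only peak lists limit what a missing peak says.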

Other observations

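The peaks at KEA4 combined a low fold with a high −log10 q, and their summits lay near one edge of the peak, 22 bp and 36 bp from its start in GRF3-GFP replicates 1 and 2. Among peaks within 1 kb of a gene with a fold under 4, a −log10 q of at least 15 was found in 7.99% and 10.4% in those libraries. Among peaks farther from genes it was found in 15.7% and 17.1%. What sets these peaks apart was not tested.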
